A study of Homo sapiens with 9 samples.

Results

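*PTHLH* encodes parathyroid hormone-related protein (PTHrP), and it is followed here through its gene-level counts and its transcripts in every library. It is 1 of 59452 rows of the gene table and 1 of 15528 genes that passed the filter on low counts, and 9 of the quantified transcripts belong to it. The gene was chosen from the values of suspended against attached cells, where it had one of the larger rises, so that contrast is given below as a description without a test.

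The series compared MDA-MB-453 cells, an established human breast cancer line labelled triple-negative and wild type, in attached culture and in forced suspension. Attached cells with the DMSO vehicle, suspended cells with the same vehicle, and suspended cells with 10 µM AT-0174 were each sequenced as 3 libraries after 48 hours. AT-0174 inhibits both TDO2 and IDO1, the enzymes that open tryptophan breakdown along the kynurenine route, and the comparison asks how gene expression responds to it in cells that lack attachment. Suspension was forced by plates coated with poly-HEMA, which cells cannot grip. All libraries come from 1 line, and attached cells with AT-0174 are not analysed here, so an effect of the inhibitor on attached cells is not measured.

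PTHrP was found as the factor behind high blood calcium in patients with cancer. It signals through PTH1R, the receptor it shares with parathyroid hormone, mainly by way of Gs, cAMP and protein kinase A. In the mammary gland it acts in development and in calcium supply to milk, and tumor-derived PTHrP acts on osteoblasts, whose RANK ligand then drives osteoclasts to break down bone.

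*PTHLH* (ENSG00000087494) lies on the minus strand at chr12:27958084-27972733 of GRCh38. The annotation gives 9 transcripts, and their lengths in the files equalled those of GENCODE release 44 for all 9. Signaling through PTH1R needs only the start of the mature protein, which these transcripts share, whereas alternative splicing changes the end. The 3 annotated coding ends share 524 coding bases. They are shown because the transcript values below are grouped by them, with the last 30 shared coding bases in lower case and the bases of each form through its stop codon in capitals.
175-codon form: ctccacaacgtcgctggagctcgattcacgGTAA
177-codon form: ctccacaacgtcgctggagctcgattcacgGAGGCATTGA
209-codon form: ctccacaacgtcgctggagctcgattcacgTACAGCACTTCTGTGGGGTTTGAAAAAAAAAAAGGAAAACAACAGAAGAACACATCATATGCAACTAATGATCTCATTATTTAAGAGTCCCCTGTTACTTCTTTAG
The capitals of the 175-codon form lie at chr12:27963344-27963347, where the exon simply reads on. Those of the 177-codon form lie in a separate last exon at chr12:27958559-27958568. Those of the 209-codon form lie in another last exon at chr12:27961892-27961997.

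The transcripts also begin at 4 places. In the direction of transcription, these were named start 1 to start 4, and start 3, a group of nearby first exons, took the largest mean share of reads in all 3 conditions. The 300 bases just upstream of its outermost annotated exon, chr12:27970350-27970649 on the minus strand, are shown for that reason and lie in an intron of the transcripts from start 1 and start 2. Matches to the searched motifs, on either strand, are in capitals.
Upstream of start 3: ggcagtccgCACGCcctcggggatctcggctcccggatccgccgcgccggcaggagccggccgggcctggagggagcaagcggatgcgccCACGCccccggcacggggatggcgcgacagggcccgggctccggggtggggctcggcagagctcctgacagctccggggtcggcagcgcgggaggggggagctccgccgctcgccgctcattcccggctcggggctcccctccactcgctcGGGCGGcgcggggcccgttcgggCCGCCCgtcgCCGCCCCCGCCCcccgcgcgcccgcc
This stretch had a G and C content of 82%. It held 4 matches to the GC box GGGCGG, some of them next to each other, and 50.7% of the 300-base windows upstream of 20032 protein-coding genes held at least 1. It held 2 matches to GCGTG, the core bound by the aryl hydrocarbon receptor, and 40.6% of those windows held at least 1. The AP-1 site TGANTCA (6.64% of windows), the cAMP response element TGACGTCA (2.01%) and the TATA box TATAAA (11.99%) were not in this window. The windows of the other genes were not matched for G and C content, so their shares are not those of equally rich sequence.

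The libraries held 36649977 to 48019096 rounded counts, with 36649977 to 39930991 in the attached libraries and 42084172 to 48019096 in those with AT-0174. The line's own markers were high in every library, among them *KRT8* (779 to 877 in TPM, a level scaled by transcript length and depth) and *FOXA1* (321 to 426 TPM). The estrogen and progesterone receptor genes *ESR1* (0 to 4 counts) and *PGR* (5 to 18 counts) were near 0, whereas *ERBB2* stood at 398 to 436 TPM. The basal keratins *KRT5* and *KRT14* had at most 3 and 2 counts, and *TP63* had 206 to 266 counts. Of 5 genes of other cell types, *PTPRC*, *PECAM1*, *COL3A1* and *ALB* had at most 11 counts, while *COL1A1* reached 51.5 to 66.0 TPM. The 6 luminal and apocrine markers summed to 3821 to 3994 TPM in attached cells, 4633 to 4693 TPM in suspended cells with vehicle and 4389 to 4766 TPM with AT-0174. The part of this shift in the values of *PTHLH* was not tested, and in bulk samples more cells with a transcript cannot be told apart from more of it per cell.

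*PTHLH* was lowest in attached cells, higher in suspension and highest in suspension with AT-0174. In attached cells with vehicle, the 3 libraries held 155, 120 and 129 counts of *PTHLH*, or 4.05, 3.32 and 3.32 CPM, counts scaled to a common library size. In suspended cells with vehicle they held 296, 390 and 251 counts, or 7.65, 8.84 and 5.71 CPM. In suspended cells with AT-0174 they held 627, 454 and 517 counts, or 13.0, 10.8 and 11.7 CPM. Every suspended library lay above every attached one, and every library with AT-0174 lay above every suspended library with vehicle. The group means were 3.56 ± 0.422, 7.40 ± 1.58 and 11.8 ± 1.08 CPM (SD, n = 3 each), so the spread was widest in suspended cells with vehicle, where replicate 3 was lowest.

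**Figure D1:**
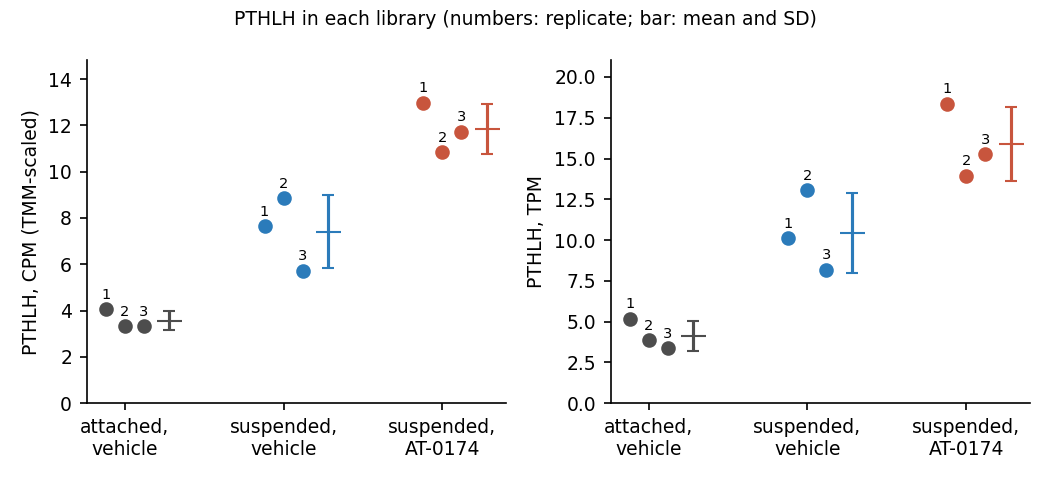
Level of PTHLH in each of the 9 libraries, as TMM-scaled CPM (left) and as TPM (right), by condition, with replicate numbers beside the points and the mean and SD beside each group. The 3 conditions do not overlap on either scale, and suspended cells with vehicle run from 5.71 to 8.84 CPM.

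The counts behind these levels are modest, and the 95% Poisson intervals show how far counting alone could move them. The highest suspended library with vehicle had an interval of 7.98 to 9.76 CPM, and the lowest library with AT-0174 one of 9.86 to 11.9 CPM. These intervals did not meet, although they cover counting error only.

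Per length, *PTHLH* went from below the median of the tested genes to near it. Its TPM was 3.36 to 5.17 in attached cells, 8.18 to 13.1 in suspended cells with vehicle and 13.9 to 18.4 with AT-0174. Within the library, 30.6% to 36.0% of the tested genes had a lower TPM in attached cells. This share was 41.8% to 49.4% in suspended cells with vehicle and 51.8% to 56.9% with AT-0174.

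In suspended against attached cells, both with vehicle, the log2 fold change of *PTHLH* was 1.05 (standard error 0.151), or 2.07-fold. This value chose the gene and is given as a description. In that contrast, edgeR's quasi-likelihood test called 21.2% of the 15528 tested genes at a Benjamini–Hochberg adjusted p under 0.05, 10.4% higher and 10.8% lower. Over attached cells, suspended cells with AT-0174 were 3.32-fold higher on a log2 fold change of 1.73 (standard error 0.147), a comparison that uses the same attached libraries and is likewise only described.

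AT-0174 was followed by a further rise of *PTHLH* in suspended cells. The log2 fold change of AT-0174 against vehicle was 0.68 (standard error 0.135), or 1.60-fold, with an adjusted p of 0.0381 in edgeR's quasi-likelihood test over all tested genes. All 3 libraries with AT-0174 were above all 3 with vehicle. Some genes that were not called in this contrast also showed this, and their share of all tested genes is not given here. Calls were rare in this contrast, with 0.779% of tested genes, 0.522% higher and 0.258% lower. Among the 81 genes called higher, *PTHLH* ranked 8 by log2 fold change. The vehicle libraries of this contrast are the suspended libraries of the contrast that chose the gene.

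The direction of the AT-0174 difference was the same in 14 of 14 alternative analyses, but the call was not. The shared direction adds little, since the groups did not overlap in CPM or TPM and the same libraries were used again. The adjusted p was under the threshold in 8 of the 14 and ranged from 8.4e-10, with no filter on low counts, to 0.432, with counts rebuilt from TPM. Leaving out single libraries ended the call in 5 of 6 edgeR fits. The adjusted p was 0.125 without suspended vehicle replicate 1, 0.0927 without suspended vehicle replicate 3, 0.135 without AT-0174 replicate 1, 0.0587 without AT-0174 replicate 2 and 0.111 without AT-0174 replicate 3. Without suspended vehicle replicate 2, the highest of its group, it was 0.0173. The log2 fold change stayed between 0.52 and 0.83 in these 6 fits.

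**Figure D2:**
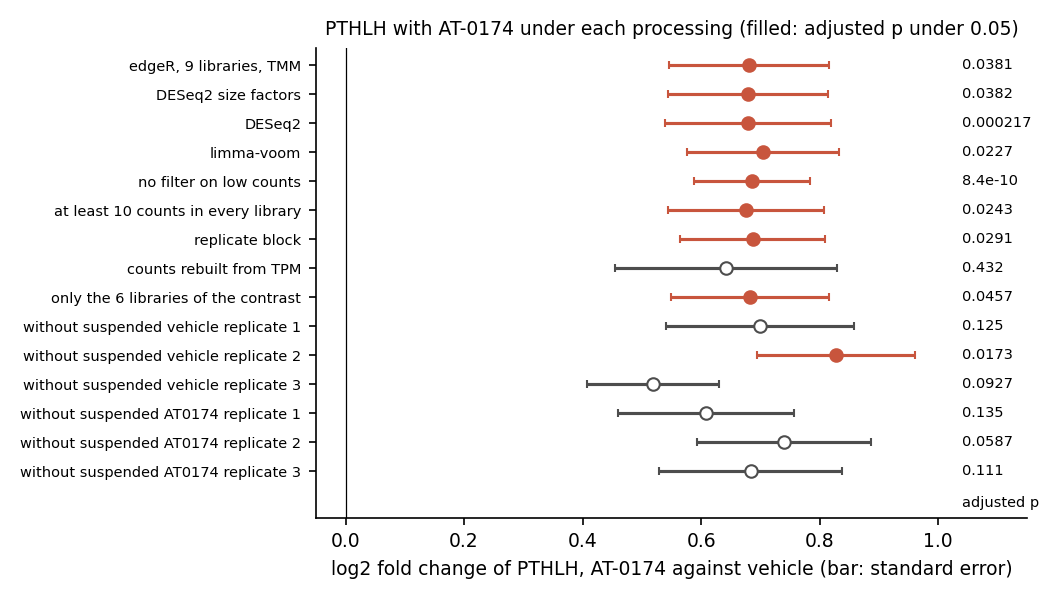
Log2 fold change of PTHLH for AT-0174 against vehicle in suspended cells (points, with standard errors as bars) in the main fit and in 14 alternatives, with the adjusted p at the right and filled points where it is under 0.05. All points lie above 0, from 0.52 to 0.83, while the adjusted p crosses the threshold.

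The transcripts were examined to see whether one form carried these differences. Salmon divides reads between overlapping transcripts by a model, and for *PTHLH* the single-transcript estimates jumped between replicates. ENST00000395868 was estimated at 55.5 and 42.4 reads in attached replicates 1 and 2 and at 0 in replicate 3, where ENST00000535992, which shares most of its sequence, was estimated at 75.6 reads. Transcripts were therefore summed by first exon and by coding end, though the sums still carried such jumps. A transcript from start 2 with the 175-codon end was estimated at 40.9 reads in attached replicate 2 and at 0 in every other library. In that replicate ENST00000395872, from start 2 with the 177-codon end, was at 15.5 reads. ENST00000539239, from start 4, was at 87.4, 0 and 47.5 reads in AT-0174 replicates 1, 2 and 3. The transcripts with a mean share of at least 5% were ENST00000395872 (28.3% of *PTHLH* reads), ENST00000395868 (26.1%), ENST00000535992 (18.6%), ENST00000542963 (11.8%), which has no annotated coding end, and ENST00000539239 (6.69%).

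Start 3 carried most of the reads in each condition. Its summed transcripts stood at 2.04, 1.67 and 1.94 CPM attached, 5.20, 5.10 and 2.69 CPM in suspension with vehicle, and 7.09, 6.67 and 7.13 CPM with AT-0174. The groups did not overlap, and suspended vehicle replicate 3, the library with the least *PTHLH* of its group, was well below its 2 partners. The share of *PTHLH* reads from start 3 was 53.1 ± 4.73%, 57.6 ± 10.4% and 59.0 ± 3.81% (SD, n = 3 each).

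Start 2, the more distal first exon, was 2.01, 1.56 and 0.955 CPM attached, 1.74, 2.40 and 1.78 CPM in suspension with vehicle, and 3.00, 3.58 and 3.08 CPM with AT-0174. Attached and suspended cells with vehicle overlapped here, whereas the libraries with AT-0174 lay above both. Its share of reads was 41.8 ± 11.3% in attached cells, 27.03 ± 4.19% in suspension with vehicle and 27.5 ± 5.06% with AT-0174 (SD, n = 3 each). The difference of −14.8 percentage points between suspended and attached cells had an exact two-sided permutation p of 0.2 (adjusted 1 over 16 comparisons), and 3 libraries against 3 cannot give a p below 0.1. Start 4 had a share of 4.20 ± 5.15% in attached cells, 15.1 ± 6.27% in suspension with vehicle and 13.1 ± 8.19% with AT-0174, and the first pair also gave an exact permutation p of 0.2 (adjusted 1, n = 3 each).

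By coding end, the 175-codon and 177-codon forms together held most reads. The 175-codon form stood at 1.45, 2.30 and 1.94 CPM attached, 4.11, 3.56 and 2.24 CPM in suspension with vehicle, and 5.71, 5.03 and 5.78 CPM with AT-0174. The 177-codon form stood at 2.01, 0.429 and 1.05 CPM, then 2.39, 3.45 and 2.78 CPM, then 4.88, 3.58 and 4.23 CPM in the same order. The values of both ends in attached replicate 2, and the attached shares below, depend on how Salmon divided the reads of start 2. Libraries with AT-0174 lay above those with vehicle in suspension for both ends. The 209-codon form was the least abundant, at 0 to 0.330 CPM attached, 0.0523 to 0.289 CPM in suspension with vehicle and 0.355 to 1.00 CPM with AT-0174.

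The shares of the coding ends are given as values, since 3 libraries against 3 could not show a shift of any size past the threshold. The share of the 175-codon form was 54.6 ± 17.1%, 44.5 ± 8.08% and 46.6 ± 2.68% of reads, in the order attached, suspended with vehicle and suspended with AT-0174 (SD, n = 3 each). The share of the 177-codon form was 31.3 ± 18.3%, 39.7 ± 8.73% and 35.6 ± 2.34%. Shares of reads are not scaled by transcript length. In TPM, the 175-codon share was 40.8 ± 13.4%, 29.7 ± 6.73% and 31.4 ± 2.42%, in the same order. The 177-codon share in TPM was 31.9 ± 17.0%, 42.6 ± 9.79% and 37.3 ± 5.27%. In both suspended conditions the 177-codon form thus had the larger mean share in TPM and the smaller one in reads. Transcripts with no annotated coding end held 23.7% of TPM and 13.2% of reads with vehicle, and 23.0% and 12.4% with AT-0174. These shares are larger than the gaps between the 175-codon and 177-codon forms, so which form was larger is not settled. Between AT-0174 and vehicle the 175-codon share of reads differed by 2.12 percentage points (exact permutation p = 0.7, adjusted 1, n = 3 each) and the 177-codon share of reads by −4.09 (exact permutation p = 0.6, adjusted 1, n = 3 each).

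**Figure D3:**
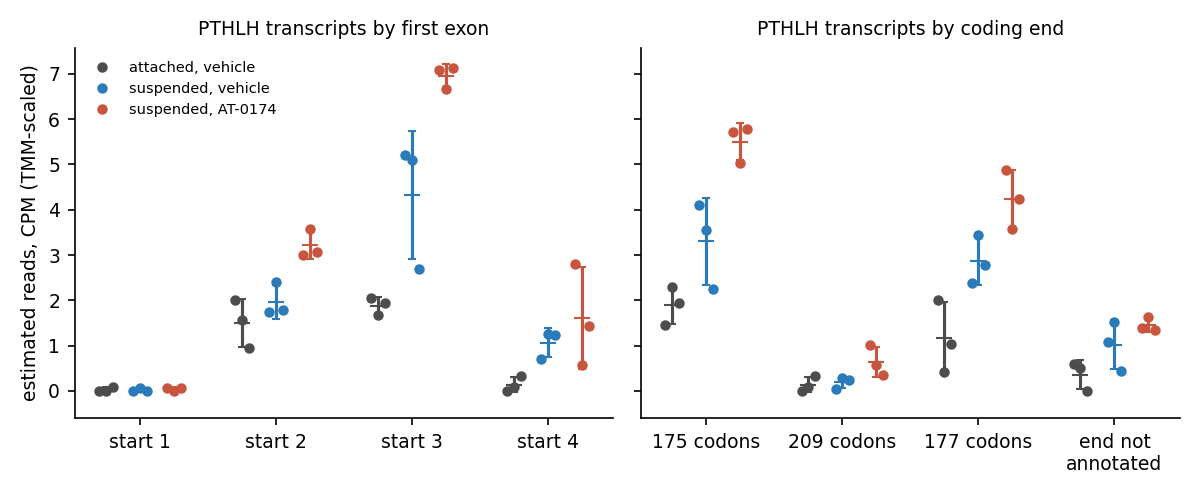
Estimated reads of PTHLH transcripts (TMM-scaled CPM) grouped by first exon (left) and by coding end (right), with 1 point per library and the mean and SD of each condition. Start 3 and the 175-codon end are highest in suspension with AT-0174, at 6.67 to 7.13 and 5.03 to 5.78 CPM.

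The genes around PTHrP signaling were taken from 6 lists with 115 genes, of which 79 could be tested. Of these 79, 25 (31.6%, beside 21.2% of all tested genes) were called in suspended against attached cells, 14 higher and 11 lower, with a median log2 fold change of −0.0126 beside −0.000253 over all tested genes. With AT-0174 against vehicle 3 (3.80%, beside 0.779%) were called, 2 higher and 1 lower, and the median was −0.0182 beside 0.00133 over all tested genes. The lists were chosen with earlier results of these data known, so the shares of both contrasts are descriptions and not a test of the lists. The count of 3 was 1 without suspended vehicle replicate 1 or 3 and without AT-0174 replicate 1 or 2, and 2 without either of the other libraries of the contrast. Of the alternative tools, DESeq2 called 1544 genes higher and 1655 lower of 13414 in suspension, and limma-voom 1576 and 1675 of 15528. With AT-0174, DESeq2 called 133 higher and 106 lower, and limma-voom 84 and 43. For counts at an unadjusted p under 0.05, the share of all tested genes is not given here.

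The receptors of the family and the other ligands were at or near 0. *PTH1R*, the receptor of PTHrP, had 2, 3 and 4 counts in attached cells, 7, 8 and 4 counts in suspended cells with vehicle and 4, 4 and 15 counts with AT-0174. The conditions met or overlapped, and the gene was too low to be tested. *PTH* and *PTH2*, the related hormones, had 0 counts in 9 of 9 libraries, and a count of 0 allows up to 3 counts in a library. *PTH2R*, the second receptor of the family, had at most 1 count and *RAMP2*, which associates with *PTH1R*, at most 2.

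Of the genes that carry the receptor's signal, 21 of 26 were tested. In suspended against attached cells 4 were called higher and 3 lower, beside 10.4% and 10.8% of all tested genes. The median log2 fold change was 0.0251. *ARRB1*, which encodes a β-arrestin, was 67.4 ± 2.06 CPM in suspension and 56.5 ± 1.48 CPM attached (log2 fold change 0.25, edgeR adjusted p = 0.00214). The adenylyl cyclase gene *ADCY2* was higher (0.62, edgeR adjusted p = 0.00171), though with counts rebuilt from TPM its adjusted p was 0.779. *ADCY6*, another adenylyl cyclase, was lower (−0.21, edgeR adjusted p = 0.00595). With AT-0174, where 0.779% of all tested genes were called, the list had 1 call at a median of 0.0171 for the list. This was *PLCB1*, a phospholipase C that acts below Gq. *PLCB1* was 23.2, 23.3 and 20.9 CPM with vehicle and 27.4, 26.8 and 26.7 CPM with AT-0174 (log2 fold change 0.27, edgeR adjusted p = 0.0253). The groups did not overlap, yet the adjusted p rose to 0.0619 without suspended vehicle replicate 1, 0.114 without suspended vehicle replicate 3, 0.103 without AT-0174 replicate 1, 0.0804 without AT-0174 replicate 2, 0.0965 without AT-0174 replicate 3 and 0.341 with counts rebuilt from TPM.

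Genes of PTHrP processing and nuclear import had 9 tested members of 12, of which 2 were higher and 1 lower in suspension (median log2 fold change −0.0126). Over all tested genes, 10.4% were called higher and 10.8% lower. *FURIN*, a proprotein convertase that cleaves the PTHrP precursor, rose from 71.1 ± 1.52 to 84.8 ± 1.57 CPM (log2 fold change 0.25, edgeR adjusted p = 0.00136). *CPD*, a carboxypeptidase that trims peptides after such cleavage, was also higher (0.25, edgeR adjusted p = 0.000667, or 0.155 with counts rebuilt from TPM). *MME*, the cell-surface peptidase neprilysin, fell from 63.8 ± 2.26 to 45.4 ± 1.63 CPM (−0.49, edgeR adjusted p = 2.0e-05). The contrast with AT-0174 uses these suspended libraries again, and it called 1 gene higher and 1 lower, beside 0.522% and 0.258% of all tested genes. *MME* was 55.5 ± 1.85 CPM with AT-0174 (log2 fold change 0.29 over vehicle, edgeR adjusted p = 0.0059, or 0.694 with counts rebuilt from TPM). *FURIN* was 74.2 ± 3.62 CPM with AT-0174 (−0.19, edgeR adjusted p = 0.0445). The call of *FURIN* was lost without suspended vehicle replicate 1 (adjusted p = 0.156), 2 (0.0881) or 3 (0.123), without AT-0174 replicate 1 (0.103) or 2 (0.171), with only the 6 libraries of the contrast (0.0776) and with counts rebuilt from TPM (0.325). The list's median with AT-0174 was −0.0182.

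Known regulators of *PTHLH* transcription had 22 tested members of 27, with 3 higher and 2 lower in suspension (median log2 fold change −0.00512). Calls were about as common over all tested genes, at 10.4% higher and 10.8% lower. *GLI3*, a transcription factor of hedgehog signaling, fell from 60.0 ± 2.60 to 44.3 ± 2.83 CPM (−0.44, edgeR adjusted p = 0.000257). *TGFBR2*, a receptor of TGFβ, which raises PTHrP output in breast cancer cells, fell from 6.20 ± 0.363 to 3.41 ± 0.239 CPM (−0.86, edgeR adjusted p = 0.00365, or 0.0508 with counts rebuilt from TPM). The other called genes were higher in suspension. *EPAS1*, which encodes the hypoxia-inducible factor HIF-2α, went from 166 ± 4.83 to 188 ± 8.36 CPM (0.18, edgeR adjusted p = 0.0170, but 0.434 with counts rebuilt from TPM, 0.0634 when attached replicate 2 was left out and 0.0630 when suspended vehicle replicate 3 was). *SMAD2*, a transducer of TGFβ, went from 80.8 ± 3.23 to 89.2 ± 0.980 CPM (0.14, edgeR adjusted p = 0.0199, but 0.130 with counts rebuilt from TPM, 0.0510 and 0.0800 when attached replicate 2 or 3 was left out and 0.0574 when suspended vehicle replicate 3 was). *RXRA*, a nuclear receptor that pairs with the vitamin D receptor, went from 197 ± 1.87 to 211 ± 3.79 CPM (0.10, edgeR adjusted p = 0.0266). Its edgeR adjusted p was 0.0541, 0.0604 and 0.0774 when attached replicate 1, 2 or 3 was left out, 0.0966 when suspended vehicle replicate 2 was, 0.0561 with genes of low counts kept, 0.0562 with only the 6 libraries of the contrast and 0.0900 with counts rebuilt from TPM. With AT-0174, edgeR called 0 of the 22, with 4 lower at an unadjusted p under 0.05, while DESeq2 called 1 lower and limma-voom 0 (median −0.0186).

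Of 14 genes that respond to cAMP and CREB, 5 were called higher in suspension and 0 lower, beside 10.4% and 10.8% of all tested genes (median log2 fold change 0.161). DESeq2 and limma-voom gave the same counts, as did an unadjusted p under 0.05 in edgeR. *FOS*, a subunit of the AP-1 transcription factor, was 0.706, 0.941 and 0.592 CPM attached and 37.5, 45.4 and 20.9 CPM suspended. *DUSP1*, a phosphatase of MAP kinases, was 5.28, 5.26 and 5.28 CPM attached and 15.6, 17.0 and 10.7 CPM suspended (log2 fold change 1.45, edgeR adjusted p = 0.000121). For both genes, as for *PTHLH*, suspended vehicle replicate 2 was highest and replicate 3 lowest of its group. The order differed with AT-0174, where replicate 2 was highest for *FOS* (42.9 CPM) and *DUSP1* (13.3 CPM) but lowest for *PTHLH* (10.8 CPM). How many of all tested genes share these orders is not given here. *FOSB* (1.47) and *JUNB* (0.57), which also encode AP-1 subunits, were called higher by edgeR (adjusted p = 0.00197 and 4.2e-05). With AT-0174, edgeR called 0 of the 14, with 1 lower at an unadjusted p under 0.05 and 0 by DESeq2 or limma-voom (median −0.101).

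Only 13 of 31 genes of bone metastasis and osteolysis were high enough to test. Of these 13, 5 were called lower in suspension and 0 higher, beside 10.8% and 10.4% of all tested genes (median log2 fold change −0.188). The counts were the same by DESeq2, by limma-voom and at an unadjusted p under 0.05 in edgeR. *JAG1*, a Notch ligand, fell from 49.95 ± 0.875 to 30.99 ± 1.37 CPM (−0.69, edgeR adjusted p = 3.7e-06). *EDN1*, which encodes endothelin 1, fell from 8.16 ± 0.706 to 3.45 ± 0.345 CPM (−1.24, edgeR adjusted p = 1.9e-05). The TGFβ genes *TGFB2* (−1.52, edgeR adjusted p = 0.0033) and *TGFB3* (−0.23, edgeR adjusted p = 0.000736) were lower too, although *TGFB2* had an adjusted p of 0.188 with counts rebuilt from TPM. *TNFSF11*, the gene of RANK ligand, had at most 1 count and *IL6* at most 1. With AT-0174, edgeR called 0 of the 13, with 1 higher and 5 lower at an unadjusted p under 0.05, while DESeq2 called 1 in each direction and limma-voom 0 (median −0.201).

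**Figure D4:**
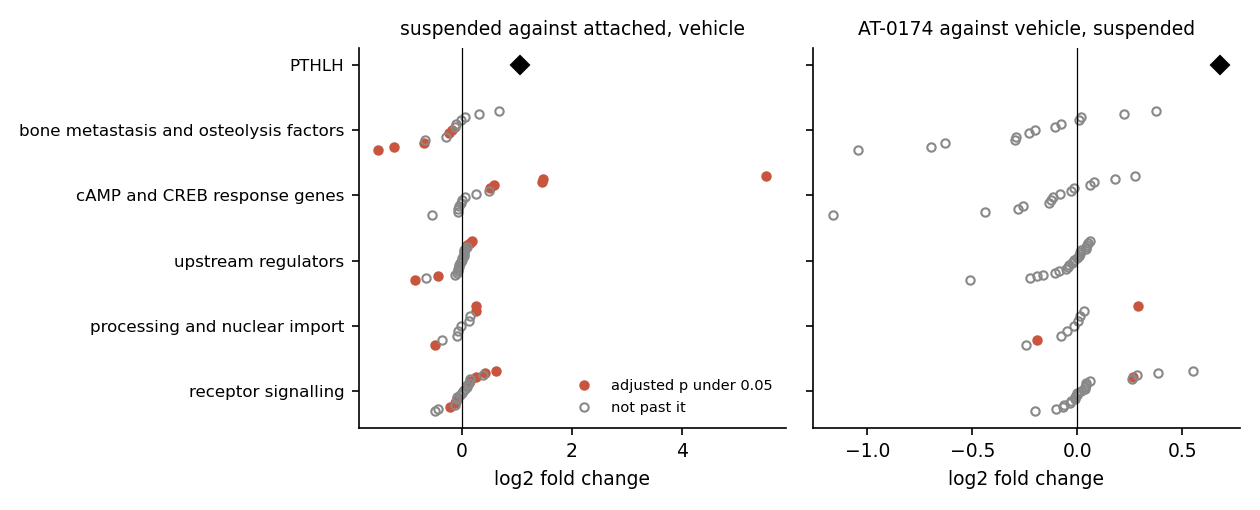
Log2 fold changes of the tested genes of 5 lists around PTHrP in suspended against attached cells (left) and in AT-0174 against vehicle (right), with filled points at an adjusted p under 0.05, open points otherwise, and PTHLH as a black diamond at 1.05 and 0.68. The medians of the lists lie between −0.201 and 0.161, and the 2 panels share the suspended libraries with vehicle.

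Of 42 annotated genes that start within 1 Mb, 9 were tested, and 1 was called in suspended against attached cells, where 21.2% of all tested genes were. This was *MRPS35*, a mitochondrial ribosome gene 262 kb downstream, which went from 71.3 ± 4.11 to 85.2 ± 2.04 CPM (log2 fold change 0.26, edgeR adjusted p = 0.00299) and had a log2 fold change of 5.8e-05 with AT-0174. With AT-0174, where 0.779% of all tested genes were called, edgeR called 0 of the 9, with 1 at an unadjusted p under 0.05 and 0 by DESeq2 or limma-voom. The median log2 fold changes of the 9 were 0.0245 and 0.0202. The noncoding gene ENSG00000257042 overlaps *PTHLH* on the opposite strand and had 1 to 6 counts per library, against 120 or more for *PTHLH*. Whether strand was used in counting is not given in the sources used here.

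The genes whose levels followed *PTHLH* most closely over the 9 libraries were taken from 12526 genes with a mean count of at least 50. The 5 highest Pearson correlations of log2 CPM were those of *PLCB1* (0.99), *SPRY1* (0.99), *LAD1* (0.98), *MORF4L2* (0.98) and *TDO2* (0.98). The 9 points share 3 conditions, so the values describe a common order of the conditions. *PLCB1* was at 16.7 ± 0.246, 22.4 ± 1.37 and 26.97 ± 0.384 CPM in the order of the conditions, a smaller relative range than that of *PTHLH*. *TDO2*, which encodes one of the enzymes AT-0174 inhibits, was at 115 ± 3.15 CPM attached, 167 ± 9.52 CPM in suspension with vehicle and 196 ± 5.08 CPM with AT-0174 (SD, n = 3 each).

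The 5 lowest correlations were those of *CDH2* (−0.99), *SMURF2* (−0.98), *ABCC6* (−0.97), *ADAMTS4* (−0.97) and *DHX58* (−0.97). *CDH2*, which encodes N-cadherin, was at 22.2 ± 0.376 CPM attached, 17.6 ± 0.936 CPM in suspension with vehicle and 14.5 ± 0.490 CPM with AT-0174. *ADAMTS4*, a secreted protease of cartilage matrix, was at 7.36 ± 0.685, 4.79 ± 0.301 and 3.64 ± 0.242 CPM in the same order. Ranked by Spearman's rho, 1 of these 10 genes remained among the 10 named.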

How the data were processed

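The data are RNA-seq values of 9 libraries. Transcripts were quantified by the authors with Salmon 1.10.1 after trimming with Trim Galore 0.6.7 and cutadapt 3.4 and alignment with STAR 2.7.9a to GRCh38, per the labels and the methods. The deposited gene table holds estimated counts, not normalized, and equals the sums of the deposited transcript values. The deposited TPM values, also made by the authors with Salmon, are scaled by transcript length and depth. The kit is SMARTER in the labels and a different one in the methods.

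Rounding made whole numbers of the estimated counts. After filterByExpr and TMM scaling, all 9 libraries entered 1 quasi-likelihood fit by condition in edgeR 4.0.16 (R 4.3.3), with Benjamini–Hochberg adjustment over 15528 genes. The study's methods name limma (3.58.1 here), run as limma-voom among the alternatives with DESeq2 1.42.0. Standard errors are the ratio of the log2 fold change to √F. The procedure was tested on simulated data. CPM uses TMM-scaled totals. Counting intervals are exact Poisson at 95% and, like the limit of 3 counts for a count of 0, cover counting error only. Libraries are labelled biological triplicates, and p-values measure the spread between these.

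*PTHLH*, the gene lists and the tests were chosen with earlier results of these data known. Named genes are *PTHLH* and its transcripts with at least 5% of reads, the ligands and receptors, at most 4 called genes per list and direction, called neighbors within 1 Mb, the 5 most and 5 least correlated genes, and the markers, with values printed for part of them. A gene of these lists is not reported here and was left out of their counts and sums. *TNFSF11* and *IL6* were named after their values were seen. Shares of transcripts were compared by exact two-sided permutation. Gene positions and exons come from GENCODE release 44, and sequences from GRCh38. Alternatives are given at the end.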

Additional observations from a re-analysis of the deposited data

How the results depend on the processing

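The rise of *PTHLH* with AT-0174 kept its direction in each alternative run, where groups without overlap left little room for another sign. It had an adjusted p of 0.432 with counts rebuilt from TPM (log2 fold change 0.64). Without single libraries its log2 fold change ran from 0.52 to 0.83, with the call lost in 5 of 6. The suspended against attached value of *PTHLH* and its value for AT-0174 against attached cells kept their direction in each alternative. The called listed genes with AT-0174 were 3, against 6 with DESeq2, 10 with no filter, 5 with a replicate block, 0 with counts rebuilt from TPM, 1 at an adjusted p under 0.01, and 1 to 2 without single libraries. In suspended against attached cells they were 25, against 14 with counts rebuilt from TPM. With Spearman in place of Pearson, 1 of the 10 genes most like *PTHLH* remained. Over all genes, the 121 calls with AT-0174 became 239 with DESeq2, 499 with no filter and 31 with counts rebuilt from TPM (24 higher and 7 lower, against 81 and 40), and 66, 86 and 65 without suspended vehicle replicates 1, 2 and 3 and 63, 68 and 70 without AT-0174 replicates 1, 2 and 3. The 3297 calls of suspended against attached cells became 1396 with counts rebuilt from TPM, 1935 without attached replicate 3 and 1951 without suspended vehicle replicate 2. The causes were not tested.

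Replicate numbers showed no sign of pairing, since deviations of same-numbered libraries correlated at −0.065 to 0.053 and those of differently numbered ones at −0.086 to 0.089. Low correlations cannot show that the samples were unpaired. With the replicate number as a block, *PTHLH* had a log2 fold change of 0.69 and an adjusted p of 0.0291 with AT-0174. Counts of 120 to 627 per library limit the precision of the *PTHLH* values, and those of its transcripts more so. No group has the 4 libraries needed to look for outlying samples.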
